A study of Panagrellus redivivus with 189 samples.

Results

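The comparison sets the undivided zygote of the nematode *Panagrellus redivivus* against embryos of 2 and 3 cells. Its members are the 9 blastomeres that carry the sample numbers 1 to 9, out of 189 blastomeres in the series. The 1-cell group holds 2 embryos, each a single cell labelled P0. The 2-3-cell group holds 7 blastomeres of 3 embryos, and the blastomeres of an embryo were summed so that the embryo is the replicate. One 2-cell embryo (b) has cells labelled AB and P1, and the 3-cell embryo has AB1, AB2 and P1. The other pair of 2-cell blastomeres is labelled only 1 and 2, and its treatment as 1 embryo (a) is an assumption that the labels do not state. No strain, treatment or culture is given, all 5 embryos belong to the lower of 2 sample-number series, and each stage beyond the zygote rests on 1 or 2 embryos. Blastomeres were separated by hand and profiled with CEL-Seq2, which tags the 3′ ends of RNA with a barcode for each cell, and the barcoded cells of an embryo were sequenced as 1 pool.

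In nematodes such as *Caenorhabditis elegans*, the zygote P0 divides unequally into a larger anterior cell, AB, and a smaller posterior cell, P1, whose line leads to the germ cells. The AB cell divides before P1, which gives a short stage with a pair of AB daughters beside P1. In *C. elegans* the RNA of these first cells is mostly supplied by the mother, and changes at this time come largely from the storage, localization and breakdown of maternal RNA. These statements are background from that species. The rows of the count table analysed here carry no gene identifier, so each feature is named by its row number, no function can be given and no maternal or lineage marker could be looked up.

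A set of 6 rows was left out of every total and test. The rows with the highest counts among them ran from 905 to 1024 and from 959 to 1024 counts over the 9 blastomeres. The 6 rows held from 23.1% of a blastomere's counts (95% Wilson interval 22.5 to 23.7%, P1 of the 3-cell embryo) to 69.7% (68.6 to 70.9%, cell 1 of 2-cell embryo a). The remaining 1566 features gave 7242 and 8255 counts in the 1-cell embryos. They gave 7801 and 7117 counts in the 2-cell embryos a and b. The total was 25575 in the 3-cell embryo, and its P1 cell, the deepest of the 9, supplied 56.2% of that. The difference in mean log10 total between the groups, 0.16, was not significant (exact permutation test over embryos, two-sided p = 1, with 0.2 the smallest that 2 against 3 embryos can give). With so few embryos this permutation test cannot reach 0.05 for any value.

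**Figure D1:**
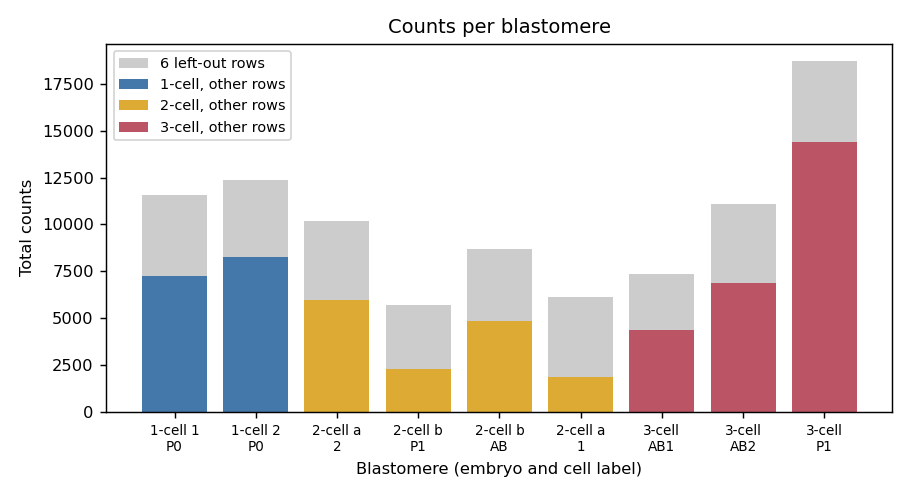
Total counts of each of the 9 blastomeres, in sample order, with the 6 left-out rows in grey on top of all other rows in the colour of the stage. P1 of the 3-cell embryo has 14376 counts outside the 6 rows, and the other blastomeres have 1858 to 8255.

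The number of features found in an embryo did not separate the groups. At an equal depth of 7117 counts, 337 and 314 features were expected in the 1-cell embryos. The 2-cell embryos a and b had 328 and 333, and the 3-cell embryo had 318. These values overlapped (difference of group means 0.84 features, exact permutation test, two-sided p = 1). Of the 501 features with a count in any of the 5 embryos, 251 had one in all 5. There were 129 features with counts only in 2-3-cell embryos, 64 of them only in the deep 3-cell embryo, and 32 with counts only in 1-cell embryos. Nearly all of these were at the edge of detection: 7 of the 129 and 0 of the 32 reached 10 counts. The 7 are rows 246, 360, 542, 600, 717, 997 and 1404, and in each the 3-cell embryo gave most of the counts. Row 360 had 0 counts in the other 4 embryos and 14 in the 3-cell embryo, at least 2.83-fold above the level that 3 counts over both 1-cell embryos would give. The 7 rows were picked for having 0 counts in the 1-cell embryos and at least 10 in the others. That choice favours such a fold, which is description only. These intervals and floors cover counting error only.

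Taken as 2 groups, zygotes and 2-3-cell embryos showed no feature past the threshold. Of 178 features with enough counts to test, 0 (0%) reached an adjusted p under 0.05 in edgeR's quasi-likelihood test, and the smallest adjusted p was 0.286. At an unadjusted p under 0.05 there were 18 features, or 10.1%. DESeq2, run on all 501 features with a count, also called 0. The median log2 change over the 178 features was 0.06, a value that the scaling holds near 0. In 36 features (20.2%) all 3 2-3-cell embryos lay above both 1-cell embryos, and in 34 (19.1%) all lay below. A single simulated data set of this size gave every feature the same spread. Among its changed features that passed the filter, 22.2% of 27 2-fold, 69.2% of 26 4-fold and 100% of 29 8-fold changes were recovered. Those changed features were a large share of the 192 that passed its filter, which makes the adjusted threshold easier to pass. In the real data the spread also differs between features, so recovery there may be lower. Small changes were thus mostly out of reach. The labels do not say whether the embryos came from separate cultures, so p-values measure only the spread between these embryos.

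The features below are those with the smallest unadjusted p on each side. None passed the threshold, and levels are in CPM, the count of a feature scaled to a fixed total of all tested features. Row 36, the most abundant feature of the 5 embryos, stood at 43903 and 49026 CPM in the 1-cell embryos. It stood at 64719 and 68019 CPM in 2-cell embryos a and b and at 82303 CPM in the 3-cell embryo. The groups did not overlap, and the 2-3-cell mean was 1.54-fold the 1-cell mean (71680 ± 9346, SD, n = 3, against 46464 ± 3623, n = 2; edgeR log2 change 0.63 ± 0.14 SE, adjusted p = 0.286). Within the 3-cell embryo row 36 was uneven, with 129912 CPM in AB1, 90569 in AB2 and 57722 in P1 (CPM of single blastomeres are without TMM scaling), against 42477 and 50206 CPM in the P0 cells. No count of this number series exceeds 1024, and row 36 had 529, 581 and 774 counts in these cells, so a ceiling would lower P1, the deepest, the most. With counts corrected as if 1024 were a ceiling, AB1, AB2 and P1 were at 169863, 122642 and 93402 CPM and the P0 cells at 47310 and 59078. The order held, and the ratio of AB1 to P1 became smaller, although their difference in CPM did not. The log2 change between the groups became 0.79 (edgeR adjusted p = 0.392). Differences between cells of 1 embryo, here and below, have no replicate. In the 2-cell embryo b, AB (69798 CPM) and P1 (70369 CPM) were nearly equal.

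Row 1480 gave the largest difference among the 5 features of the higher side. It had 6 and 7 counts in the 1-cell embryos (921 and 880 CPM), 19 and 15 in the 2-cell embryos (2525 and 2194 CPM) and 73 in the 3-cell embryo (3189 CPM). All 2-3-cell embryos were more than 2-fold above both zygotes (log2 change 1.56 ± 0.45 SE, edgeR adjusted p = 0.293). Row 549 was the evenest of the set, at 2303 and 2263 CPM in the 1-cell embryos against 4120, 3803 and 4325 CPM in the 2-cell embryos a and b and the 3-cell embryo. Its log2 change was 0.84 ± 0.34 SE (adjusted p = 0.386), and each of its 7 2-3-cell blastomeres, from 3731 to 4521 CPM, lay above both P0 cells. Rows 1427 and 1261 completed the higher side, at 2.43-fold and 2.03-fold by group means (both adjusted p = 0.386), with the 3-cell embryo the highest in each.

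Among the 5 features of the lower side, row 371 had the largest difference. It stood at 18881 and 19736 CPM in the 1-cell embryos, at 2392 CPM in 2-cell embryo a, at 9654 CPM in 2-cell embryo b and at 2010 CPM in the 3-cell embryo. The zygotes were nearly equal, whereas 2-cell embryo b was well above embryo a and the 3-cell embryo (log2 change -2.09 ± 0.62 SE, edgeR adjusted p = 0.293). Its blastomeres were uneven too. AB1, AB2 and P1 of the 3-cell embryo had 29, 13 and 4 counts (7122, 2027 and 298 CPM). In 2-cell embryo b the order was the opposite, with 7682 CPM in AB and 14840 CPM in P1, so row 371 had no constant side of the AB and P1 division.

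Row 689 lay below the zygotes with fewer counts, at 5680 and 2388 CPM against 532, 1755 and 874 CPM (log2 change -1.96 ± 0.57 SE, edgeR adjusted p = 0.293). Its zygotes differed by more than 2-fold. Row 795 was at 7522 and 4903 CPM in the 1-cell embryos and at 1728, 3364 and 1529 CPM in 2-cell embryos a and b and the 3-cell embryo. Row 817 was at 3531 and 4274 CPM against 1728, 1902 and 917 CPM, and its adjusted p was again 0.293. Row 1357 was the most abundant of the lower side in 2-3-cell embryos, at 15351 and 12445 CPM against 7176, 6729 and 8650 CPM (log2 change -0.88 ± 0.29 SE, adjusted p = 0.386). In all of these the groups did not overlap, which the 34 such features above put in proportion.

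**Figure D2:**
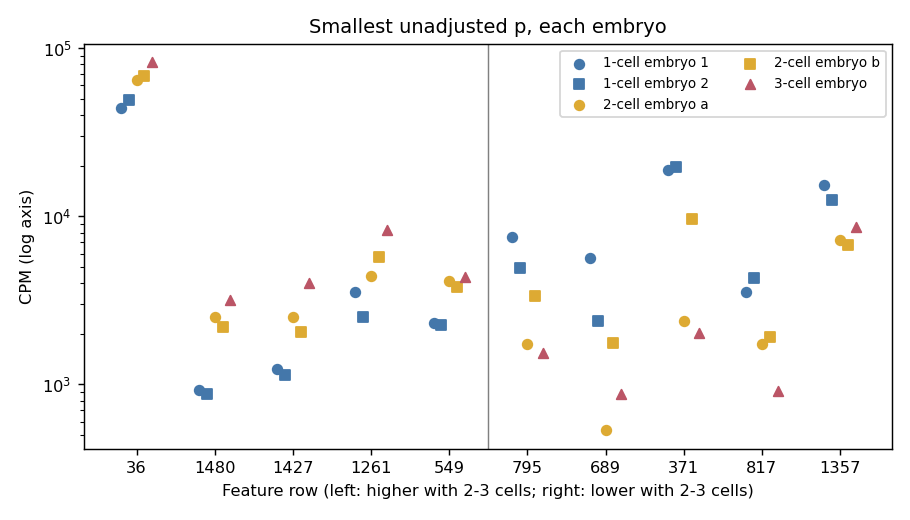
Level of the 10 features with the smallest unadjusted p, in CPM of the tested features on a log axis, with 1 point per embryo coloured by stage. The groups do not overlap in any of them, the 2-cell embryos differ most from each other in rows 371 and 689, and none passed the adjusted threshold.

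The 10 most abundant features together took 29.5% of the counts. Besides row 36, they included rows 1219, 486, 433 and 196 with group means 1.29-fold, 1.20-fold, 1.26-fold and 1.34-fold higher in 2-3-cell embryos. Rows 619, 488, 1188 and 489 had group means 1.42-fold, 1.33-fold, 1.78-fold and 1.25-fold higher in 1-cell embryos. Row 479 was at 29270 ± 1450 CPM (SD, n = 2) in the 1-cell and 28107 ± 3949 CPM (n = 3) in the 2-3-cell embryos, a difference smaller than either spread. None of the 10 passed the threshold, and the groups overlapped in rows 433 and 479. The group means of each of the 10 differed by less than 2-fold.

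The 3-cell embryo stood apart from the other 4. Across the 178 features the Spearman correlation was 0.861 between the 1-cell embryos and 0.838 between the 2-cell embryos. Between a 1-cell and a 2-cell embryo it was 0.758 to 0.813. The 3-cell embryo correlated with the 1-cell embryos at 0.522 and 0.629 and with the 2-cell embryos a and b at 0.711 and 0.668. It lay at least 2-fold above every other embryo in 6 features and at least 2-fold below in 16, whereas each other embryo did so in 0 to 2 and 1 to 5 features. Unlike the others, it has no further embryo of its stage among the 5, which makes such features easier to find in it. The same order was seen at an equal depth of 6645 counts, where the 3-cell embryo correlated with the 1-cell embryos at 0.518 and 0.626 and the 1-cell embryos with each other at 0.861. These correlations are across features, which are not independent replicates.

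Single blastomeres, thinned to 1858 counts each, gave the same picture. The P0 cells correlated at 0.731. The cells of the 3-cell embryo correlated with each other at 0.650 to 0.755 and with P0 cells at 0.417 to 0.543, and all 6 of the latter were below every correlation between a 2-cell blastomere and a P0 cell (0.571 to 0.679). Among the 2-cell blastomeres, cells treated as 1 embryo correlated at 0.633 and 0.695 and cells of different embryos at 0.579 to 0.697. At this depth these data do not show which 2-cell blastomeres belong together. The difference of the 3-cell embryo was thus present in AB1, AB2 and P1 and not only in the deep P1 cell.

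Later embryos of the same number series were set beside the 5. With the first 8-cell embryo, the 4 younger embryos correlated at 0.382 and 0.458 (1-cell) and 0.567 and 0.498 (2-cell a and b). The 3-cell embryo correlated with it at 0.858, and at 0.815 when all embryos were thinned to 4201 counts. By this measure it was nearer to the 8-cell embryo than to either of the 2-cell embryos. All 5 embryos were far from the 12-cell and 14-cell embryos, with correlations of 0.003 to 0.228. The tested features held 93.0 to 94.2% of the counts of the 5 young embryos, 84.7% in the 8-cell embryo and 46.8% and 42.2% in the 12-cell and 14-cell embryos, since they were selected in the youngest.

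**Figure D3:**
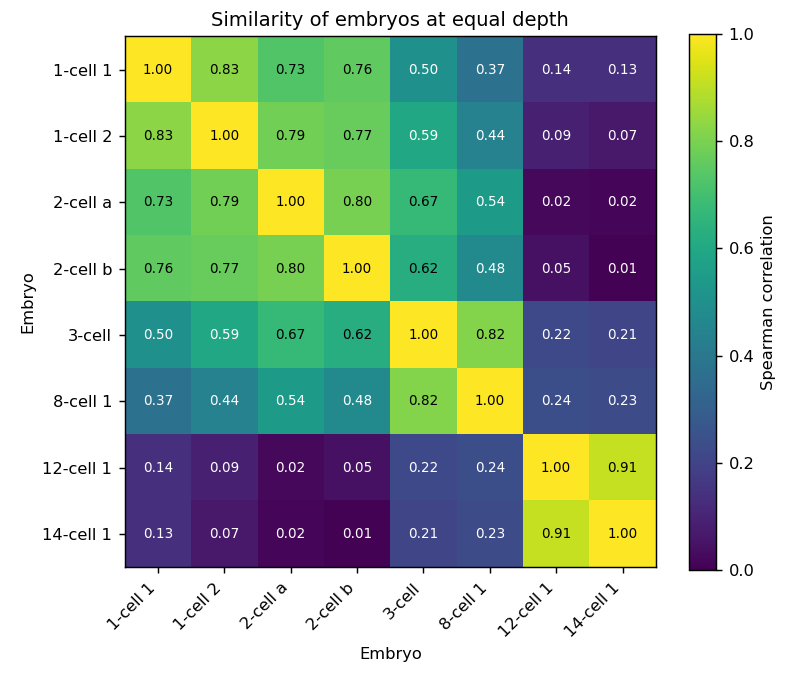
Spearman correlation between the 8 embryos of the lower number series over 178 features, with every embryo thinned to 4201 counts. The 1-cell and 2-cell embryos form a block at 0.73 to 0.83, the 3-cell embryo pairs with the 8-cell embryo at 0.82, and the 12-cell and 14-cell embryos pair with each other at 0.91.

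The stages were therefore also compared 1 by 1. This comparison was added after it was seen that the 2 groups gave 0 calls and that the 3-cell embryo stood apart, and the way of fitting it was settled after several sets of calls had been seen. The reported fit holds the 8 embryos of the number series in 5 groups, with the 12-cell and 14-cell embryos in 1 group, because a fit of the 5 embryos alone set every feature to the same spread. Its residual spread comes from the 3 groups of 2 embryos (3 degrees of freedom), and the lone 3-cell and 8-cell embryos add none. In it 59 of 178 features (33.1%; edgeR quasi-likelihood test, adjusted p under 0.05) passed between the 3-cell embryo and the 1-cell embryos, 30 higher and 29 lower. Between the 3-cell and 2-cell embryos 23 features passed (12.9%), 12 higher and 11 lower. Between the 2-cell and 1-cell embryos 0 passed (0%; smallest adjusted p 0.143, with 24 features at an unadjusted p under 0.05). The lone 3-cell embryo is assumed to vary like the other groups, and stage, embryo and sequencing pool cannot be told apart. Since it prompted the comparison, the calls say which features set this embryo apart and are not independent evidence that it, or its stage, differs. The same holds for each adjusted p of this fit given below.

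These counts move with the tool. DESeq2 was run on all 501 features with a count and the other settings on the 178 tested features, so its counts also differ in the features covered. The 3-cell embryo against the 1-cell embryos gave 60 features with the spread of the 5 embryos alone, 51 with limma-voom, 72 with the bias-adjusted form of edgeR's test and 11 with DESeq2, of which 10 were among the 59. For the 2-cell embryos against the 1-cell embryos the same 4 settings gave 14, 8, 16 and 0, so the count of 0 is not stable. For the 3-cell against the 2-cell embryos they gave 32, 30, 45 and 2. With all embryos thinned to the lowest total, which removes the depth advantage of the 3-cell embryo, 35 features were called against the 1-cell embryos, all 35 among the 59. Without 1-cell embryo 1 the count was 26, of which 25 were among the 59. Without the P1 cell of the 3-cell embryo it was 45, with 35 shared. Without 2-cell embryo b, the comparison of the 3-cell with the 2-cell embryo gave 5.

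The features higher in the 3-cell embryo with the smallest p were rows 704 and 634. Row 704 had 17 and 19 counts in the 1-cell embryos, 7 and 15 in the 2-cell embryos and 395 in the 3-cell embryo. In CPM these are 2610 and 2388, then 930 and 2194, then 17256, so the 2-cell embryos were no higher than the zygotes and the 3-cell embryo was far above all 4 (log2 change from the 1-cell embryos 2.78 ± 0.40 SE, edgeR adjusted p = 0.000534; from the 2-cell embryos 3.47 ± 0.42 SE, adjusted p = 0.000131). It was high in all 3 cells, at 18173 CPM in AB1, 11224 in AB2 and 18570 in P1. Row 634 went from 1689 and 1634 CPM in the 1-cell embryos through 1861 and 2779 CPM to 10572 CPM (log2 change from the 1-cell embryos 2.65 ± 0.40 SE, adjusted p = 0.000653). Its 3 cells were at 10806, 11847 and 9098 CPM. In the later embryos row 634 was higher still. With the 8 embryos scaled together it was at 9537 CPM in the 3-cell, 20077 in the 8-cell and 54152 and 54398 in the 12-cell and 14-cell embryos. These CPM are relative to the tested features, which held 84.7% of the 8-cell counts but 46.8% and 42.2% in the 12-cell and 14-cell embryos. Row 634 had 205, 174 and 193 counts in these later embryos, of 11539, 8981 and 11090 without the 6 rows. Relative to all those rows its level was similar in them, so the step after the 8-cell embryo is not seen on that base.

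Rows 1221, 362, 1480 and 1261 followed. Row 1221 was at 2303 and 2137 CPM in the 1-cell embryos, 1063 and 1463 CPM in the 2-cell embryos and 8606 CPM in the 3-cell embryo (log2 change from the 1-cell embryos 1.94 ± 0.31 SE, edgeR adjusted p = 0.000781). Among its cells P1 was highest, at 10665 CPM against 5149 CPM in AB1 and AB2 together (ratio 2.07, 95% counting interval 1.5 to 2.89, cells of 1 embryo). In 2-cell embryo b, AB and P1 were at 1536 and 1436 CPM, from 7 and 3 counts. Row 362 was at 3531 and 1634 CPM in the zygotes and at 8781 CPM in the 3-cell embryo (log2 change 1.79 ± 0.36 SE, adjusted p = 0.00338). Rows 1480 and 1261, already described, had log2 changes of 1.8 ± 0.41 and 1.46 ± 0.34 SE between the 3-cell and 1-cell embryos, both with an adjusted p of 0.00641. Unlike rows 704 and 1221, they were already above the zygotes in both 2-cell embryos. In DESeq2, rows 1221, 362, 1480 and 1261 missed the threshold (adjusted p from 0.0991 to 0.297). Row 1480 also missed it at equal depth (adjusted p = 0.0812) and with limma-voom (0.0991).

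Among the features lower in the 3-cell embryo, row 1187 was lower at each stage. It had 64 and 54 counts in the 1-cell embryos, 25 and 30 in the 2-cell embryos and 17 in the 3-cell embryo despite its greater depth. In CPM these are 9824 and 6788, then 3322 and 4388, then 743 (log2 change from the 1-cell to the 3-cell embryo -3.45 ± 0.41 SE, edgeR adjusted p = 0.000189). Row 775 was within the zygotes' range in both 2-cell embryos and low in the 3-cell embryo. It stood at 25635 and 10937 CPM in the zygotes, 11695 and 15944 CPM in the 2-cell embryos and 1966 CPM in the 3-cell embryo (log2 change -3.21 ± 0.55 SE, adjusted p = 0.00123). Its 3 cells were alike, at 1965 CPM in AB1, 1871 in AB2 and 1864 in P1. In the 12-cell embryo it had 1 count and in the 14-cell embryo 0.

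Rows 722, 544, 992 and 201 were also lower in the 3-cell embryo. Row 722 went from 18421 and 17222 CPM through 7176 and 12872 CPM to 3233 CPM (log2 change -2.46 ± 0.42 SE, edgeR adjusted p = 0.00123), and AB1 kept more of it (8350 CPM) than AB2 (2650) or P1 (1715). Row 544 went from 12434 and 10559 CPM through 7575 and 7753 CPM to 3320 CPM (log2 change -1.79 ± 0.32 SE, adjusted p = 0.00157). Row 992 went from 8136 and 5405 CPM through 3588 and 4681 CPM to 917 CPM (log2 change -2.86 ± 0.41 SE, adjusted p = 0.000534). Row 201 went from 6601 and 5280 CPM through 1861 and 3803 CPM to 743 CPM (log2 change -2.98 ± 0.50 SE, adjusted p = 0.00122). In each of the 4 both 2-cell embryos lay between the zygotes and the 3-cell embryo.

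**Figure D4:**
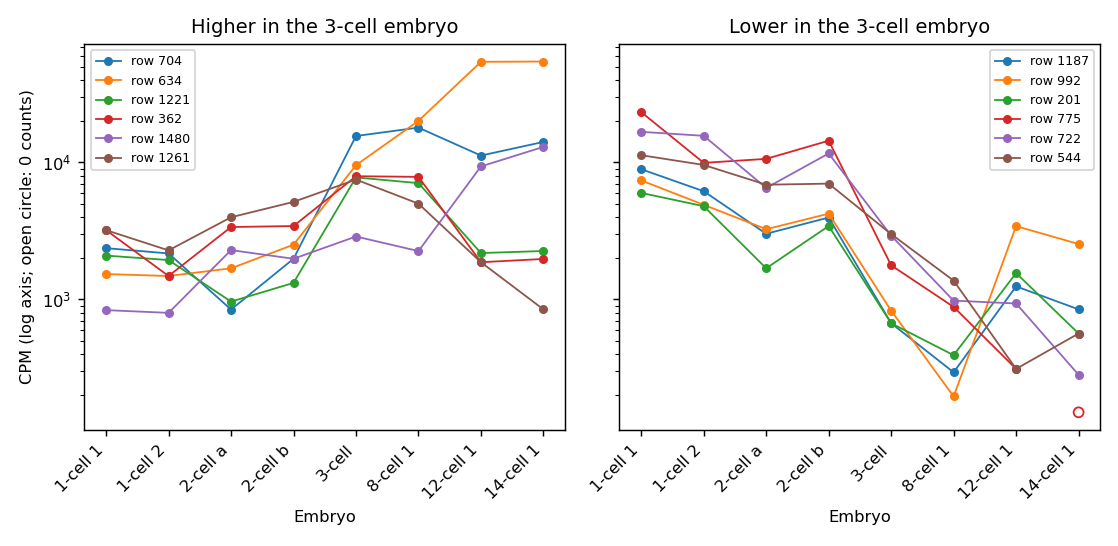
CPM of the 6 features with the smallest p on each side of the 3-cell against 1-cell comparison, on a log axis, in each of the 8 embryos scaled together, with lines joining the points of a feature. Rows 704 and 634 are higher in the 3-cell than in the 2-cell embryos. The 6 features on the right are lower in the 3-cell and 8-cell embryos than in the 1-cell and 2-cell embryos. Row 992 is at 3423 and 2537 CPM in the 12-cell and 14-cell embryos, from 11 and 9 counts. CPM are relative to the tested features, which held 46.8% and 42.2% of the counts in those embryos, so levels there read high. The open circle marks row 775 with 0 counts in the 14-cell embryo.

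Of these lower features, rows 201, 992 and 544 were found in the 3-cell embryo mostly in P1. Row 201 had 0 counts in AB1, 0 in AB2 and 17 in P1, at least 4.43-fold higher in P1 than 3 counts over both AB daughters would give. Row 992 had 0, 1 and 20 counts, a ratio of P1 to the AB daughters of 15.6 (95% counting interval 2.50 to 648). Row 544 had 2, 8 and 66 counts, a ratio of 5.16 (2.64 to 11.3). These are differences between cells of 1 embryo with no replicate, and they were chosen after their values were seen. In 2-cell embryo b the same features were not higher in P1: row 201 had 21 counts in AB and 5 in P1, row 992 had 27 and 5, and row 544 had 45 and 8. In CPM that was 4609 and 2393, 5926 and 2393, and 9877 and 3830. In the 3-cell embryo P1 had 1268, 1492 and 4922 CPM of these 3 features, and AB1 and AB2 had 0 to 1247 CPM.

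Features with enough counts only in the 3-cell embryo could not enter the test, because the filter asks for them in at least 2 embryos. Outside the tested features, 9 had at least 30 counts in the 3-cell embryo and 0 had so many in any other of the 5, which are less deep. Relative to depth, their ratios to the 1-cell embryos ran from 1.72 to 35.4. Rows 178 and 180 had the lowest, 1.72 and 1.77, with intervals that include equality (0.90 to 3.54 and 0.90 to 3.74), and rows 363, 370, 428 and 590 had 3.37 to 4.24. The highest was row 671, with 1 count in each 1-cell embryo, 1 and 2 in the 2-cell embryos and 117 in the 3-cell embryo. These came from all 3 cells, with 20 in AB1, 33 in AB2 and 64 in P1. Relative to all rows but the 6, the 3-cell embryo was 35.4-fold above the 1-cell embryos (95% counting interval 9.60 to 296). The same row had 371 counts in the 8-cell embryo and 594 and 781 in the 12-cell and 14-cell embryos. In the latter pair it reached 66140 and 70424 CPM, here relative to all rows but the 6. Row 671 was among the features called between 2-3-cell and 1-cell embryos without a filter on low counts (edgeR adjusted p = 0.00565), with almost all of its counts in the 3-cell embryo. Rows 646 and 615 were similar at a lower level, with 1 to 4 counts in each of the other 4 embryos and 45 and 53 counts in the 3-cell embryo (ratios to the 1-cell embryos 9.09 and 8.03, intervals 2.92 to 45.7 and 2.96 to 30.5). All 9 rows were picked by these same counts, high in the 3-cell embryo and too low in the others to be tested. That choice favours ratios above 1, so the ratios, their intervals and the adjusted p of row 671 are description only. Rows 671, 646 and 615 were singled out after their values were seen.

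Some features moved in steps over the stages. In 26 features (14.6%) both 2-cell embryos lay above both 1-cell embryos and the 3-cell embryo above all, and in 23 features (12.9%) the order was the reverse, counts that depend on the scaling. Between the 1-cell and 2-cell embryos the spread of log2 changes over features was narrower, with 21 of 178 past 2-fold, than between the 2-cell and 3-cell embryos (50) or the 1-cell and 3-cell embryos (66). When only the 2-cell embryos were set against the 1-cell embryos, in a fit of those 4 embryos, 4 of 172 tested features passed: rows 36 (log2 change 0.52 ± 0.14 SE, edgeR adjusted p = 0.0337), 371 (-1.69 ± 0.37, 0.00784), 689 (-1.80 ± 0.48, 0.0337) and 620 (2.25 ± 0.53, 0.0106). That fit drew the spread of each feature strongly toward a common value, with a weight of 36.9 degrees of freedom against 5.35 in the main fit. Rows 371 and 620 differed about 4-fold or more between the 2-cell embryos themselves, with 18 and 66 counts and 12 and 53 counts in a and b. Row 689 was uneven too, with 4 and 12 counts in a and b and 37 and 19 in the zygotes.

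The named cells AB and P1 were compared over the pair of embryos that carry these names, with AB1 and AB2 summed. No feature passed: 0 of 172 (0%; edgeR quasi-likelihood test, smallest adjusted p 0.988), 0 at an unadjusted p under 0.05, and 0 of 448 with DESeq2. The main test does not use the pairing of AB and P1 by embryo. With the embryo as a block 0 passed and 7 had an unadjusted p under 0.05. The smallest edgeR adjusted p was then 0.685, for row 428. The values of single rows below are from the fit without the block. Of the 172 features, AB was higher in both embryos in 50 and P1 in 42, counts near those that random sides would give. Row 428 had the smallest p on the P1 side, with 4 counts in P1 and 0 in AB of the 2-cell embryo and 34 in P1 and 6 in both AB cells of the 3-cell embryo (adjusted p = 0.988). Rows 641 and 178 were the next on that side, at 18 and 31 counts in P1 against 4 and 6 in the AB cells of the 3-cell embryo. On the AB side, row 588 had 10 counts in AB and 2 in P1 of the 2-cell embryo and 44 and 20 in the 3-cell embryo, a log2 change of 1.42 ± 0.65 SE (adjusted p = 0.988). Rows 1342 and 162 had log2 changes of 1.65 ± 0.77 and 1.16 ± 0.62 SE. All 6 kept their side in both embryos, which their choice by p over these same embryos favours. Their counts in the 2-cell embryo were 17 or fewer.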

How the data were processed

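The authors deposited raw counts, 1 whole number per feature and blastomere. Per the labels' protocols RNA was amplified with CEL-Seq2, and per the submitters' processing notes CASAVA 1.8, Bowtie2 2.1.0 and HTSeq 0.5.4p3 were used, without stated roles. Neither a build nor the counting unit (reads or molecular identifiers) was given in the sources used here. The copy used holds 1572 complete rows, and 1 incomplete row and 150 columns of the higher number series were not used, so totals are totals of these rows and not full depths.

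Counts were summed per embryo, without the 6 rows. The tests used R 4.3.3 and edgeR 4.0.16 (quasi-likelihood test, TMM scaling, filterByExpr, Benjamini-Hochberg threshold 0.05), checked on simulated data. DESeq2 1.42.0 and limma 3.58.1 (voom) were alternatives. CPM is relative to the tested features. The chi-square per degree of freedom was 2.50 between the 1-cell and 2.31 between the 2-cell embryos, above counting error alone, and none was treated as a repeat. AB and P1 of an embryo are paired by that embryo (correlation of deviations 0.472). Thinned values are means over 5 thinnings. Members and lists were chosen with earlier results of these data known. The stage comparison was added after the data were seen, and its reported fit was chosen after the counts of the alternatives were known. Named features are the 5 of smallest unadjusted p in each direction with a mean of at least 50 CPM, since none passed, the 10 most abundant, and 3 per side for AB and P1. The 6 per side named by stage have the smallest p there.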

Additional observations from a re-analysis of the deposited data

Results flagged for a closer look

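In 44 sets of values, from the 4 2-cell or the 7 2-3-cell blastomeres, 2 had a value far from the rest by Dixon's criterion, which chance meets in about 1 of 20 sets. The P1 cell of the 3-cell embryo had 14376 counts without the 6 rows, and the other 2-3-cell blastomeres had 1858 to 6850. Row 36 stood at 55908 CPM in cell 1 of 2-cell embryo a, the shallowest blastomere, against 69482 to 70369 CPM in the other 2-cell blastomeres.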

How the results depend on the processing

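For 2-3-cell against 1-cell embryos the count of 0 of 178 features became 7 of 501 without a filter on low counts. It was 4 of 172 with only the 2-cell embryos and 13 of 331 in a fit with all 8 embryos. It ranged from 0 to 4 when each embryo was left out (1 without 2-cell embryo b, 4 without the 3-cell embryo). In the fits without a filter and with all 8 embryos every feature was given the same spread. The fit with only the 2-cell embryos drew the spread strongly toward a common value. The median log2 change of 0.06 over 178 features became 0.24 in DESeq2 and 0.31 without a filter, both over 501 features. It was -0.036 over 172 features with only the 2-cell embryos, and ranged from -0.036 (without the 3-cell embryo) to 0.10 with embryos left out. The feature set changes with these settings, so the medians are not of the same features. Named features kept their direction, except that row 479 changed sign without a filter (0.027), with the 4 2-cell blastomeres as 1 embryo (0.012) and in the fit with all 8 embryos (0.088), and ranged from -0.165 to 0.043 (without 2-cell embryo b) with embryos left out.

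The difference in detected features reversed to -5.15 at 2000 counts per blastomere (without cell 1 of 2-cell embryo a, at 1858 counts) and to -9.03 with the 6 rows kept, and ranged from -10.7 to 12.3 with embryos left out (-10.7 without 1-cell embryo 2, -2.49 without 2-cell embryo b). That in log10 totals reversed to -0.20 per blastomere and ranged from -0.016 (without the 3-cell embryo) to 0.26. For AB and P1 the embryo as a block left the count at 0, as did each other setting. Zygotes share no replicate pairing with later embryos.

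Stage counts are given as 2-cell against 1-cell, 3-cell against 2-cell and 3-cell against 1-cell, from main values of 0, 23 and 59. They were 9, 35 and 57 with DESeq2-style size factors, 1, 13 and 31 with the blastomeres of an embryo thinned to the same total, and 0, 11 and 35 with embryos thinned to the lowest total. With the spread of the 5 embryos alone the first was 14, with limma-voom 8. The bias-adjusted edgeR form gave 16 and 45 for the first and second. DESeq2, over 501 features, gave 2 for the second and 11 for 3-cell against 1-cell. With each embryo left out they ranged from 0 to 13, 5 to 39 and 26 to 68. The first was 13 without the 12-cell or the 14-cell embryo and 7 without 1-cell embryo 2. The second was 36 to 39 without either 1-cell embryo or any 1 later embryo. The 12 features named by stage reversed in 0 alternatives, kept the call in 210 and missed the threshold in 6. They were picked by p in the main fit, and every alternative uses the same 3-cell embryo or cells of it. Both favour keeping the call, so these counts are not independent evidence. The causes were not tested. The 3-fold depth gap and the single 3-cell embryo limit the stage results.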
